A study of Bos taurus with 40 samples.

Results

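Bovine tracheal smooth muscle strips given carbachol and cyclic stretch together were compared with untreated strips of the same animals. The comparison holds every labelled sample whose title carries carbachol with stretch or saline without stretch. These are 20 of the 40 labelled samples of the series and 10 of its 20 RNA samples, from the same 5 animals on each side. Untreated strips were kept in physiological salt solution (PSS) without stretch. Strips given both treatments were kept in PSS with 1 µM carbachol and oscillated in length at 1 Hz with an amplitude of 10% of muscle length. The other groups of the series, stretch in saline and carbachol without stretch, entered the fits because their changes are needed to ask whether the combined change equals the sum of both single changes. Tissue came from a slaughterhouse. A preload of 12 g and an equilibration of 1 h are listed for the samples of every group. How long the treatments lasted is not stated in the sources used here. Each RNA was labelled with Cy3 and with Cy5 and hybridised on custom oligonucleotide arrays.

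Carbachol is a stable agonist of muscarinic acetylcholine receptors. In airway smooth muscle these receptors couple to phospholipase C, which releases calcium from stores and forms diacylglycerol, an activator of protein kinase C, and the muscle contracts. Cyclic stretch, as in breathing, loads the same cells through integrins and the cytoskeleton, which signal to kinases such as those of the mitogen-activated protein kinase cascades. The title of the series names inflammatory gene expression driven by the cholinergic receptor and by stretch as its subject.

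The arrays carried 1040 spots, numbered so that an odd spot and the next even spot behave as duplicates. A feature here is such a spot pair. Arrays had values for 334 to 575 spots, and column medians ran from 1213 to 6042.5 intensity units in untreated samples and from 1414 to 4041.5 in samples given both treatments, so the values were normalized within and between arrays. An RNA was given a value only where both its Cy3 and its Cy5 labelling were read, so an animal read in 1 dye is left out of the changes and fits below. Of 520 pairs, 190 had values in at least 3 animals of every group and were tested, 123 of them with all 5 animals on both sides of this comparison. Only 6 tested features carry a gene name (PRKCE, BRAF, ITGA6, ITGA9, ITGA11 and RPL28), and the other 184 are given by spot numbers. The lists of smooth muscle, epithelial, fibroblast, endothelial and leukocyte markers held 20 genes, of which 0 were annotated, so the labelled tissue was not checked against its markers. The precision of all values is limited by the 5 animals.

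PRKCE, which encodes protein kinase C epsilon, a diacylglycerol-activated kinase, was the 1 named gene that rose with carbachol and stretch together, by 0.81 ± 0.14 (log2, SE), which is 1.75-fold. Another 6 unnamed features rose, and 0 of 190 fell (limma, adjusted p threshold 0.05). The 7 rises are 3.68% of the features tested. They ranged from a log2 change of 0.73 for spots 93 and 94 to 2.95 for spots 67 and 68, with a median of 1.44. Over all 190 features the median change was -0.021 and the quartiles were -0.13 and 0.11, with 87 features above and 103 below 0. In bulk strips, fewer cells of a type and less RNA per cell cannot be told apart. At an unadjusted p under 0.05 there were 20 features, 10.5%. Without the replicate block by animal, 3 features passed, spots 7 and 8, 35 and 36, and 67 and 68.

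**Figure D1:**
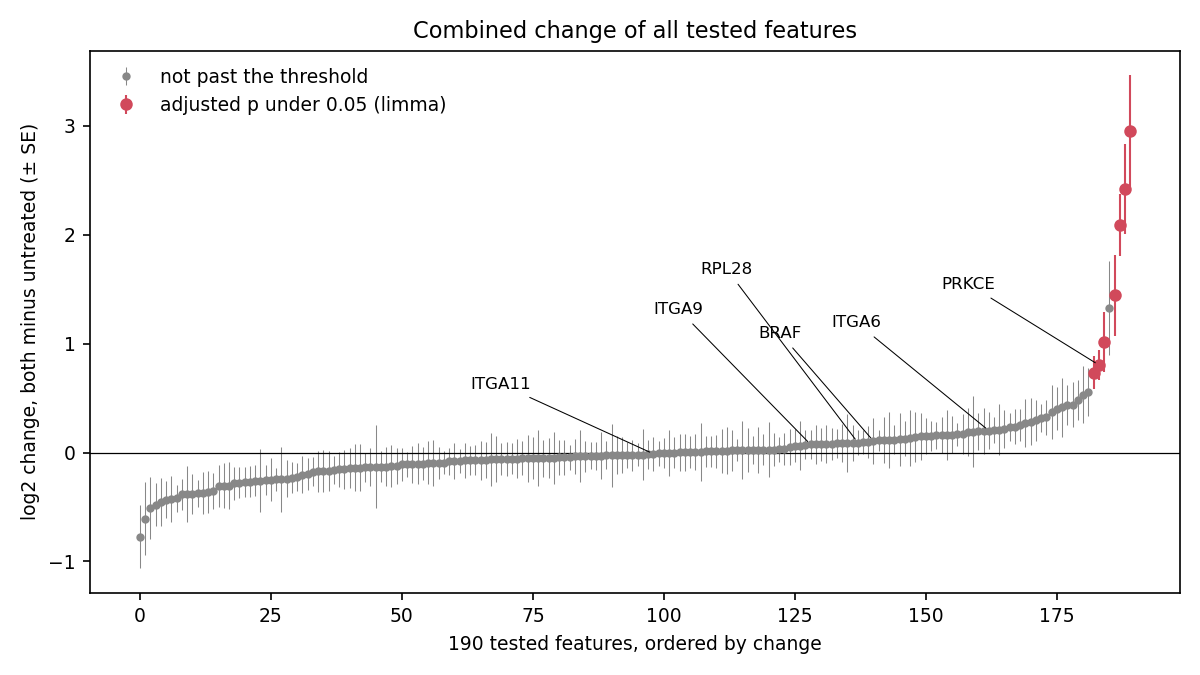
Log2 change between strips given carbachol plus stretch and untreated strips (y axis, fitted change ± SE) for the 190 tested features in order of change (x axis). The 7 features past the threshold (red) lie at the right end between 0.73 and 2.95, with spots 531 and 532 (grey, 1.33) among them, and the named genes other than PRKCE lie between -0.01 and 0.20.

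For PRKCE the normalized log2 intensities of untreated strips were 10.57, 10.16, 10.32, 10.93 and 11.04 in animals 1 to 5. With both treatments they were 11.89, 10.75, 11.28, 11.24 and 11.89. Every animal was higher with both treatments, but the groups overlap because animal 2 with treatment lay below animals 4 and 5 without it. The group means were 10.60 ± 0.379 and 11.41 ± 0.486 (SD, n = 5 each), and the paired changes were 1.32, 0.59, 0.95, 0.31 and 0.85. The limma adjusted p was 0.00117, with a 95% interval of 0.51 to 1.10. An exact sign-flip permutation test over 5 animals, two-sided, gave 0.0625, the smallest p it can give, for PRKCE and for each of the other called features with 5 animals.

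Spots 67 and 68 had the largest rise. Untreated strips lay at 12.52, 10.88, 11.86, 12.08 and 13.05 and strips given both treatments at 16.10, 15.17, 14.56 and 15.32 in animals 2 to 5 and at 14 in animal 1, all on the log2 scale. All treated strips exceeded all untreated ones, and the rise was widest in animal 2, which had the lowest untreated and the highest treated value. The change was 2.95 ± 0.512 (SE, limma adjusted p = 0.00117), a fold of 7.74, and it was 2.39 without animal 2. Raw readings reached 62909 in treated strips, near 65535, which would be the ceiling of a 16-bit reading. With readings of 60000 or more left out the change was 2.40. This dropped the untreated and the treated strip of animal 2, whose treated spots read 62909 and 60633 on their shared array. It therefore nearly repeats the fit without animal 2. What a ceiling would do to the change in the other animals was not tested. The sources used here do not say whether readings were 16-bit.

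Spots 35 and 36, like spots 67 and 68, rose most in animal 2 and least in animal 1. Their untreated values were 12.08, 10.74, 11.74, 11.08 and 11.98, and those with both treatments 13.11, 15.03, 14.42, 13.14 and 14.04. The groups did not overlap, and the change was 2.43 ± 0.413 (SE, limma adjusted p = 0.00117), 5.37-fold. Per animal it ran from 1.02 in animal 1 to 4.29 in animal 2.

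Spots 7 and 8 had values from both dyes on both sides in 4 animals. Animal 4, left out for this reason, was read on 1 array of the 2 that held both its strips, with a log2 ratio of 1.01, below the change of each animal that entered the fit. Among those 4 animals untreated strips lay within 9.77 to 10.42 and treated strips within 11.52 to 12.80, with no overlap. The change was 2.09 ± 0.287 (SE, limma adjusted p = 0.000512), 4.25-fold, the smallest p of the comparison. Animals 1 and 5 changed by 1.36 and 1.37, animals 2 and 3 by 2.93 and 2.70. Raw readings of this pair reached no more than 10731.

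Smaller rises were measured for the other 3 called pairs. Spots 955 and 956 changed by 0.20, 3.28, 1.88, 0.84 and 1.02 in animals 1 to 5, a fitted rise of 1.44 ± 0.372 (SE, limma adjusted p = 0.0379). The adjusted p was 0.0938, 0.225 and 0.105 without animal 2, 3 or 5. Spots 55 and 56 changed by 0.24, 1.17, 1.40, 1.37 and 0.88, a fitted rise of 1.01 ± 0.274 (SE, adjusted p = 0.0487), which was lost without animal 2, 4 or 5 at 0.0759, 0.236 and 0.143. Spots 55 and 56 were bright throughout, with raw readings up to 51396 in untreated and 61872 in treated strips. On the arrays that held both strips of animals 3 and 5, and on 1 of those of animal 4, treated readings crowded between 58931 and 61872. Whether they had reached a ceiling was not tested, and the size of the rise and of the departure of this pair rests on them. With readings of 60000 or more left out too few values remained to test spots 55 and 56. Spots 93 and 94 changed by 0.80, 0.84, 1.03, 0.51 and 0.48, a fitted rise of 0.73 ± 0.152 (SE, adjusted p = 0.00612), and passed with each animal left out in turn. For each of these 3 pairs the treated strips lay above all untreated strips. Over all features, 7 of 190 (3.68%) were higher in all treated strips than in any untreated one, and 2 of 190 (1.05%) were lower. Of the 7 called features, 6 were in the first count and PRKCE was not.

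**Figure D2:**
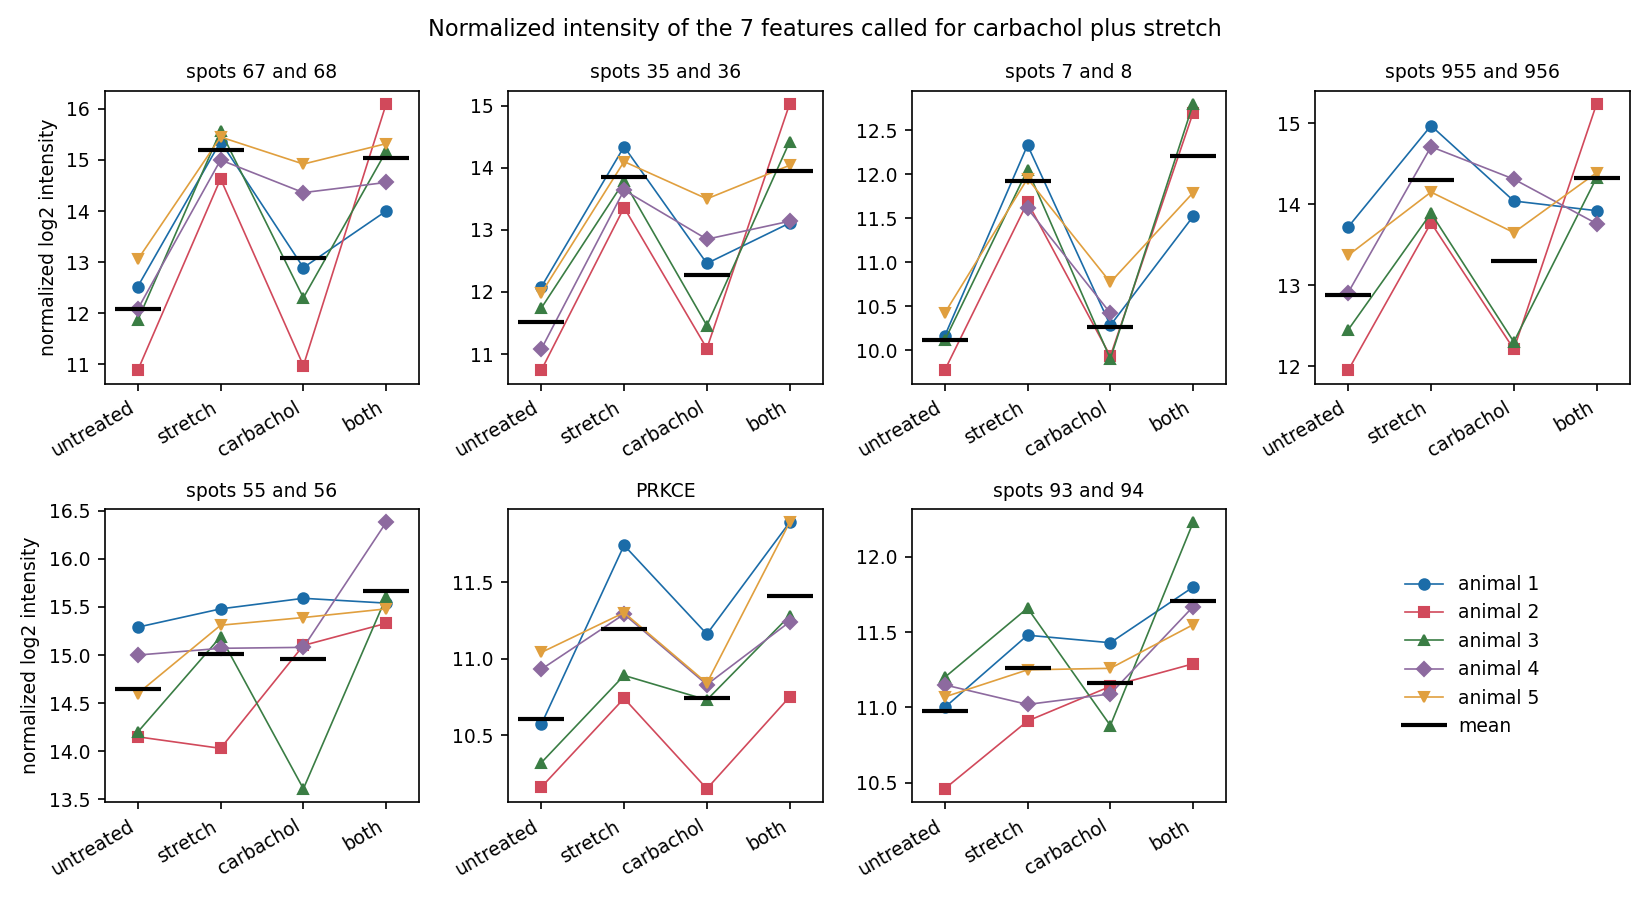
Normalized log2 intensity (y axis) of the 7 called features in untreated strips and in strips given stretch, carbachol or both (x axis), 1 line per animal and a bar for the mean. All animals shown on both sides are higher with both treatments than untreated, and for spots 67 and 68 the carbachol values lie between 10.97 and 12.89 in animals 1 to 3 and at 14.36 and 14.92 in animals 4 and 5.

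The other named genes did not pass. ITGA6, an integrin alpha subunit that pairs into laminin receptors, had a log2 change of 0.20 ± 0.17 (SE, limma adjusted p = 0.772) in 4 animals, with a 95% interval of -0.16 to 0.57. The kinase gene BRAF, which acts in the mitogen-activated protein kinase cascade, had 0.11 ± 0.211, with 0.58 in animal 1 and -0.49 in animal 3. RPL28, a ribosomal protein gene, had 0.09 ± 0.115 and was higher in 5 of 5 animals, by 0.01 to 0.23. Of the 123 features with 5 animals, 14.6% were higher in 5 of 5 and 13.8% lower in 5 of 5. ITGA9, which pairs into a receptor for tenascin and other matrix proteins, had 0.07 ± 0.13. ITGA11, an alpha subunit of a collagen receptor, had -0.01 ± 0.158. The intervals of BRAF, RPL28, ITGA9 and ITGA11 reached no further than -0.34 and 0.55.

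By list, 1 of 2 tested kinase genes rose (PRKCE, with BRAF not passing), 0 of 3 integrin genes passed with a median of 0.07, and the 1 tested gene of protein turnover and housekeeping (RPL28) did not pass, beside 3.68% called over all features. The list of muscarinic and calcium signalling genes had 1 annotated gene, PRKAR1A, and 0 tested ones. The list of inflammatory mediators had 0 annotated genes among its 11, so the genes the title speaks of cannot be read here by name. PRKAR1A, the regulatory subunit of protein kinase A that is the target of cyclic AMP, had values from both dyes on both sides in animals 1 and 3 only, where the changes were 0.31 and 0.45. It entered no test. The remaining 8 annotated pairs, stand for MAP3K5, PAK3, ITCH, ANAPC1, XPO7, ACTN3 and CAV2 (2 pairs). They were read on no more than 2 arrays and gave a value for 0 RNA samples of either group.

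Untreated strips and strips given both treatments shared an array in animals 2 to 5, on 6 arrays in all, so the change can also be read as a ratio within an array. In animals 4 and 5 this was done in both dye orientations, in animals 2 and 3 only with the treated strip in Cy3, and in animal 1 not at all. Spots 67 and 68, 35 and 36, 55 and 56, 93 and 94, and 955 and 956 were higher in the treated strip on 6 of 6 arrays, and spots 7 and 8 on 5 of 5. The ratios of spots 35 and 36 ran from 1.76 to 4.08 on the log2 scale, those of spots 55 and 56 from 0.39 to 1.62, and those of spots 93 and 94 from 0.14 to 1.18.

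PRKCE was higher on 4 of 6 arrays. Its log2 ratio was 0.76 in animal 2 and 1.24 in animal 3. In animal 4 it was -0.25 with the treated strip in Cy3 and 0.87 with the treated strip in Cy5. In animal 5 it was 1.95 in Cy3 and -0.24 in Cy5. The labellings of the same RNA samples thus differed in direction in both animals, and the sign followed neither dye. Raw readings show the same: on array 18 of animal 5 the spots read 3845 and 3094 in the treated strip and 6317 and 5712 in the untreated one, while on array 19 they read 7209 and 6331 against 2502 and 2138. Both duplicate spots of PRKCE gave the same change over all animals, 0.80 and 0.81, whereas Cy3 values alone gave 1.15 and Cy5 values alone 0.46 (limma adjusted p = 0.531 for Cy5). In animals 4 and 5 alone the PRKCE change was 0.58, which did not pass (adjusted p = 0.321).

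**Figure D3:**
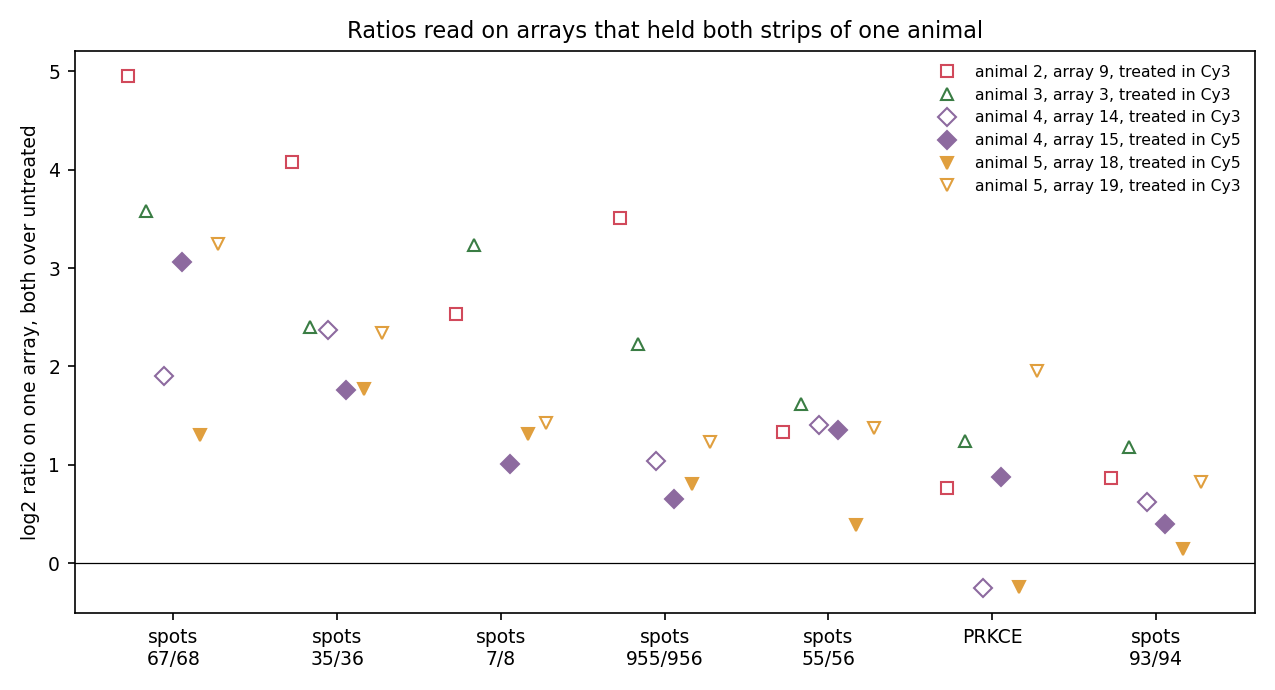
Log2 ratio of the treated over the untreated strip of an animal (y axis) on the 6 arrays that held both, for the 7 called features (x axis). Open symbols have the treated strip in Cy3 and filled symbols in Cy5, and PRKCE alone has ratios below 0, on arrays 14 and 18.

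Each dye alone gave a change above 0 for all 7 called features. For spots 67 and 68 Cy3 gave 2.35 and Cy5 3.56, and in spots 955 and 956 the order was the other way, with 1.74 from Cy3 and 1.15 from Cy5. Between the odd and the even spot the widest gap among the 7 mean changes was 2.32 against 2.53, in spots 35 and 36. Single readings could differ more. On array 3 the untreated strip of animal 3 read 9128 on spot 35 and 2318 on spot 36, and the treated strip 31163 and 35703. The named genes that did not pass had no common direction within arrays: ITGA11 was higher in the treated strip on 2 of 6 arrays, ITGA9 on 2 of 6, RPL28 on 4 of 6, BRAF on 5 of 6 and ITGA6 on 4 of 5, with ratios between -0.32 and 0.33. Animals 1 to 3 and animals 4 and 5 were on separate sets of arrays. The mean combined change was 3.34 and 2.38 in these sets for spots 67 and 68. It was 2.67 and 2.06 for the pair 35 and 36, 0.94 and 1.13 for the pair 55 and 56, and 0.95 and 0.58 for PRKCE. The other pairs were lower in animals 4 and 5, with 2.33 and 1.37 for spots 7 and 8, 1.79 and 0.93 for the pair 955 and 956, and 0.89 and 0.50 for the pair 93 and 94. For spots 7 and 8 the later value is that of animal 5 alone. This contrast of the sets was tested with limma in the features with all 20 RNA samples, which leaves out spots 7 and 8. There 0 of 118 features passed and 0 had an unadjusted p under 0.05.

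More features passed in 3 other fits. A fit of only the 2 groups called 19 of 196 features, 10 higher and 9 lower, with the same values per RNA as before. On-array ratios in animals 2 to 5 called 17 of 224, 14 higher and 3 lower, and a fit of all 40 columns with a term for each array called 20 of 118, 10 higher and 10 lower. These fits draw on the same samples and are not independent of each other, and the last takes both labellings of an RNA almost as separate replicates, since the estimated correlation between them beyond the array terms was 0.00162. Its p-values may therefore be too small. They called 10 features in common, of which 5 are not among the 7 above. Of these 5, chosen after their values were seen, 3 were higher and 2 lower.

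Spots 531 and 532 changed by 0.51, 2.27, 1.78, 1.09 and 1.00 in animals 1 to 5 and missed the threshold in the fit of all groups (1.33 ± 0.432 SE, limma adjusted p = 0.142). In the fit of only the 2 groups the adjusted p was 0.0199. Spots 735 and 736 changed by 0.61, 0.89, 0.49, 0.54 and 0.26, and spots 157 and 158 by 0.33, 0.51, 0.61, 0.29 and 0.44, with limma adjusted p of 0.265 and 0.307 over all groups. Spots 71 and 72 were lower in 5 of 5 animals, by -0.53, -0.13, -0.57, -0.63 and -0.54, and spots 125 and 126 by -0.25, -0.19, -0.73, -0.79 and -0.58. Their adjusted p over all groups was 0.307 and 0.464.

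No feature passed as lower in the fit of all groups. The lowest change was -0.77 ± 0.29 (SE, limma adjusted p = 0.265) for spots 819 and 820, which entered the fit with animals 1 to 3 at -1.51, -0.06 and -0.74. Animals 4 and 5 were read on 1 shared array each, with log2 ratios of -0.47 and -0.55. Next among those with an unadjusted p under 0.05 were spots 71 and 72 with -0.48 ± 0.197 and the pair 747 and 748 with -0.43 ± 0.171. Spots 547 and 548 (-0.42 ± 0.126, adjusted p = 0.112) and spots 115 and 116 (-0.37 ± 0.126, adjusted p = 0.169) came closest to the threshold among features that were lower. Spots 115 and 116 changed by -0.32, -0.30, -0.39, -0.44 and -0.42, without overlap of the groups, and were lower on 6 of 6 shared arrays, by -0.62 to -0.12. Spots 747 and 748 were likewise lower on 6 of 6, by -0.59 to -0.14, while spots 547 and 548 were higher on 2 of 6. No change was below -1 on the log2 scale, while 6 were above 1, the called ones of spots 7 and 8, 35 and 36, 55 and 56, 67 and 68, and 955 and 956 and that of spots 531 and 532.

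The combined change was then set against the sum of the change with stretch alone and the change with carbachol alone, each against the same untreated strips. On the log2 scale a sum means that folds multiply. The departure is the combined change minus that sum. For PRKCE stretch alone gave 0.59 ± 0.14 and carbachol alone 0.14 ± 0.14 (SE), a sum of 0.72 ± 0.243, and the combined change exceeded it by 0.08 ± 0.199. Its 95% interval, -0.34 to 0.50, lies within 1.5-fold of the product of the single folds in either direction. Per animal the departure was -0.44, 0.02, -0.02, 0.05 and 0.80. In animals 1, 4 and 5 a departure is a difference between arrays, as set out below, and cannot be told apart from an array effect.

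For the departure 0 of 190 features passed (limma, smallest adjusted p = 0.423), and 9 (4.74%) had an unadjusted p under 0.05. The median departure was 0.02, with 103 features above and 87 below 0. A p that misses the threshold does not show that the changes add up. The 95% interval of the departure held 0 for 181 features, lay within 1 on the log2 scale either way for 153, and lay within 1.5-fold either way for 51. Its median width was 1.02, and the median SE was 0.241 against 0.17 for the combined change, so only features of low spread could be held to a narrow range. The fit pooled the spread of all groups and had no array terms. Array effects that enter the departure may therefore leave these intervals too narrow.

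**Figure D4:**
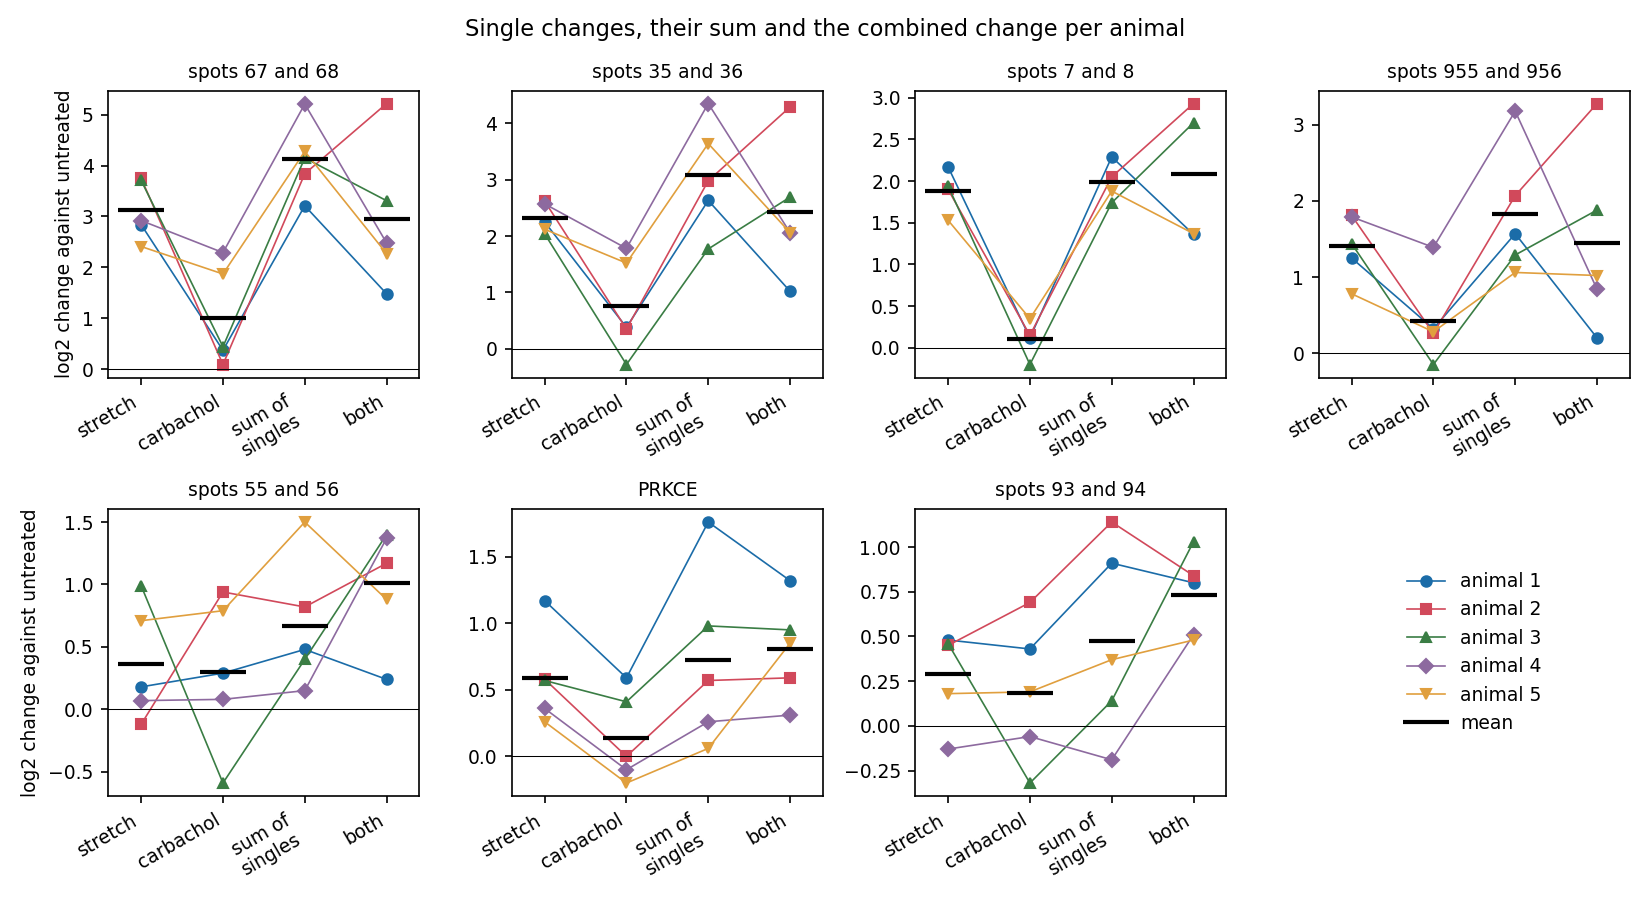
Log2 change against untreated strips (y axis) with stretch alone, carbachol alone, the sum of these changes and both treatments (x axis), 1 line per animal with a bar for the mean, for the 7 called features. For spots 67 and 68 the mean of the sum, 4.14, lies above the combined 2.95, and for spots 93 and 94 the mean of the sum, 0.47, lies below the combined 0.73.

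Stretch alone raised 4 of the 7 features (limma): PRKCE by 0.59, and the pairs 7 and 8, 35 and 36, and 67 and 68 by 1.83, 2.32 and 3.13. These were all the features called for stretch alone (2.11% of 190). Carbachol alone raised or lowered 0 of 190, and 7 (3.68%) had an unadjusted p under 0.05. No array held the untreated and the carbachol strip of the same animal. The change with carbachol alone is therefore a difference between arrays and cannot be told apart from an array effect. Untreated and stretched strips of the same animal shared an array only in animals 2 and 3. In the 7 called features the carbachol change lay between 0.14 and 1.01, each with a limma adjusted p of 0.931 or higher. These features were picked for a high combined change, which is taken against the same untreated strips as the carbachol change. Their shared sign was therefore partly set by the choice and is not a result about carbachol. The 3 features called only with both treatments had stretch changes of 1.41 (spots 955 and 956, adjusted p = 0.0541), 0.37 (spots 55 and 56) and 0.29 (spots 93 and 94). For these pairs the sums were 1.83, 0.67 and 0.47, and the departures were -0.39 ± 0.526, 0.34 ± 0.388 and 0.26 ± 0.215 (SE), none past the threshold. That a feature passed with both treatments and not with one does not by itself show a difference. Tested directly, strips with both treatments against strips with stretch alone differed by 0.65 ± 0.274 for spots 55 and 56 and by 0.44 ± 0.152 for spots 93 and 94, each with a limma adjusted p of 0.556. These strips did not share an array in any animal, so array effects enter this contrast too.

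Spots 67 and 68 and spots 35 and 36 had sums above their combined change. Spots 67 and 68 had a sum of 4.14 ± 0.887, a 17.6-fold product, against the combined 7.74-fold. The departure was -1.18 ± 0.724 (SE, limma adjusted p = 0.851). With all readings kept it was -1.73, 1.38, -0.84, -2.73 and -2.01 per animal. With readings of 60000 or more left out it was -1.87 ± 0.557 (limma adjusted p = 0.44). That setting dropped the untreated and the treated strip of animal 2, the only animal with a departure above 0, so the move cannot be read as an effect of a ceiling. Spots 35 and 36 had a departure of -0.65 ± 0.584 (adjusted p = 0.851), at -1.61, 1.32, 0.92, -2.28 and -1.58 per animal. Animals 1, 4 and 5 were negative for both pairs and animal 2 was positive for both.

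In animals 4 and 5 the change of these pairs with carbachol alone was large, at 2.29 and 1.87 for the pair 67 and 68 and 1.78 and 1.52 for the pair 35 and 36. In animals 1 to 3 it was 0.37, 0.09 and 0.44, and 0.38, 0.35 and -0.28. Taken alone, animals 4 and 5 gave departures of -2.37 and -1.93, both past the threshold (limma adjusted p = 0.01 each), 2 of 5 features called in that fit. In these animals untreated strips shared arrays with strips given both treatments, and stretched strips shared other arrays with carbachol strips. The departure and both single changes are there differences between arrays, and they cannot be told apart from an array effect. The same holds for animal 1. Its stretched and carbachol strips were both on arrays 1 and 4. Its untreated strip was on arrays 10 and 11, and its strip given both treatments on arrays 6 and 12. In animals 2 and 3 array effects cancel only in part. The difference between the sets of animals did not pass for either pair (-1.97 ± 1.16 and -2.14 ± 1.03 SE, limma adjusted p = 0.317 and 0.22). Over 118 features 0 passed this test and 28 had an unadjusted p under 0.05, the smallest adjusted p being 0.095. In the fit with array terms the departures were 0.83 ± 1.52 and 0.54 ± 1.01.

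Spots 7 and 8 had a sum of 1.99 ± 0.497 and a combined change of 2.09, a departure of 0.10 ± 0.405 (SE), positive in animals 2 and 3 (0.87 and 0.95) and negative in animals 1 and 5 (-0.93 and -0.51). Spots 7 and 8 therefore had a mean near additivity with a spread of almost 1 in either direction.

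The smallest p for a departure belonged to spots 319 and 320, at 1.15 ± 0.32 (SE, limma adjusted p = 0.423), with 2.82, 1.99, 0.17, 0.80 and -0.02 per animal. Their level was lower with stretch alone (-0.55 ± 0.227) and with carbachol alone (-0.45 ± 0.227), and with both it was 0.16 ± 0.227 from untreated, none of which passed. In animal 1 they read 9.29 with stretch and 9.40 with carbachol, against 10.41 untreated and 11.10 with both. The stretched and carbachol strips of animal 1 shared arrays that held neither of its other strips. For every feature its departure therefore cannot be told apart from an array effect. ITGA11 also had means below 0 with each single treatment, with -0.24 ± 0.158 for stretch, -0.35 ± 0.158 for carbachol and -0.01 ± 0.158 for both. Its departure of 0.58 ± 0.223 had an adjusted p of 0.696 and was 0.27 without animal 1, in which it was 1.81. Spots 785 and 786, in the fit with animals 1 to 3, had -0.95 ± 0.327, and spots 61 and 62 had -0.63 ± 0.234, below 0 or near it in every animal (-1.41, 0.00, -0.47, -1.25 and -0.04). Spots 537 and 538 had 1.49 ± 0.537, which was 0.34 without animal 3. The other named genes had departures of 0.57 ± 0.298 (BRAF), 0.31 ± 0.162 (RPL28), 0.26 ± 0.24 (ITGA6) and 0.13 ± 0.184 (ITGA9), with limma adjusted p of 0.819 or higher. Animal 1 had the highest value for BRAF (2.28) and ITGA6 (1.25). Without animal 1 the departure was 0.14 for BRAF, -0.07 for ITGA6 and 0.06 for ITGA9.

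**Figure D5:**
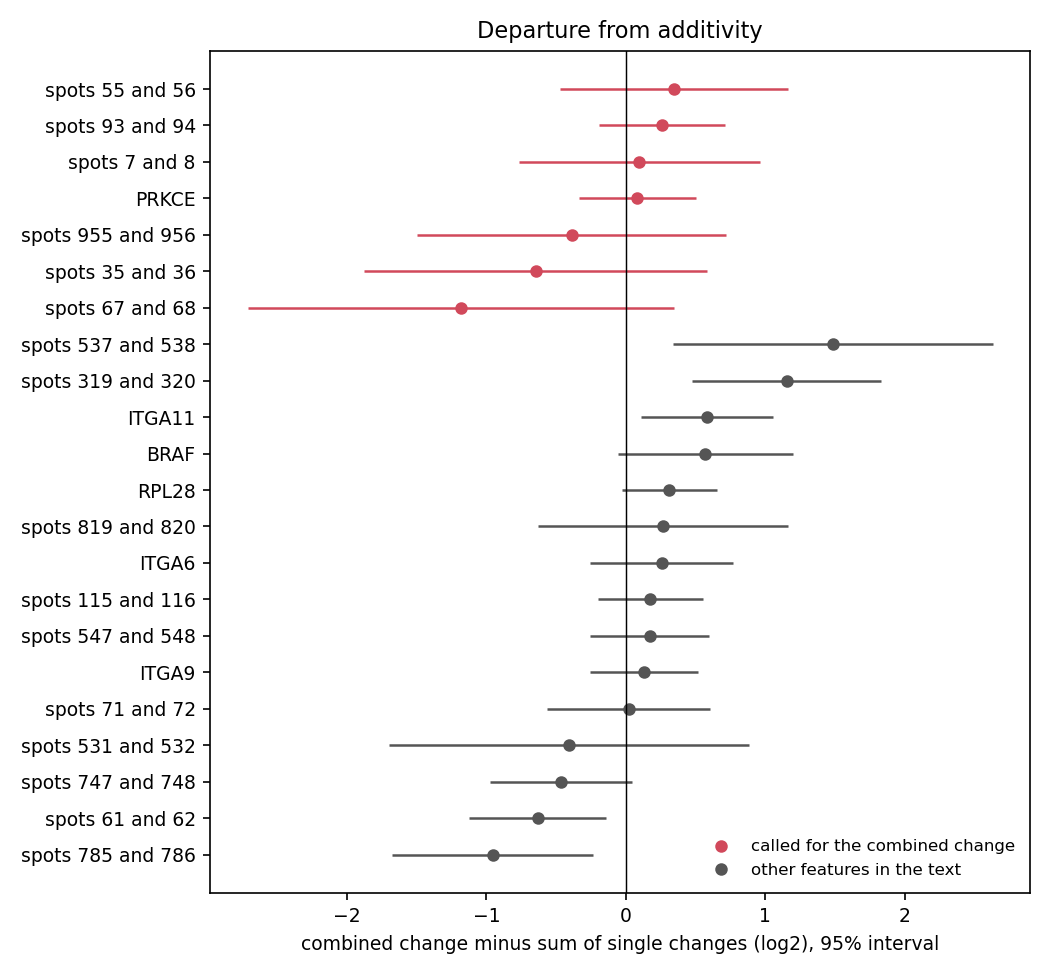
Departure from additivity (x axis, log2, point and 95% interval) for the 22 features named in the text by rule (y axis). The intervals of all 7 called features (red) hold 0, and that of PRKCE is -0.34 to 0.50.

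Additivity depends on the scale on which changes are added, so it was also taken on intensities relative to the untreated mean. Spots 67 and 68 stood at 7.98 times the untreated mean with stretch, 2.75 with carbachol and 7.78 with both, where adding the gains gives 9.73. With both treatments spots 35 and 36 stood at 5.76 against a sum of 5.72, and PRKCE at 1.78 against 1.60. Levels also lay above the sum for spots 7 and 8 (4.51 against 3.64), spots 55 and 56 (1.99 against 1.59) and spots 93 and 94 (1.67 against 1.35), and below it for spots 955 and 956 (2.66 against 3.01). On this scale too 0 of 190 features passed (limma, 11 at an unadjusted p under 0.05). The departure of spots 35 and 36 was thus -0.65 where folds multiply and 0.0339 ± 1.65 (SE) where gains add.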

How the data were processed

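The deposited values are spot intensity readings per dye channel on a linear scale, from 369 to 63793. Of all cells 57.39% were blank. Per the labels' protocols, control transcripts were added to the RNA, which was then amplified and labelled with either dye. The sources used here name no scanner, image software, background treatment or rule for blanks. Per array the raw median log2 ratio, Cy5 over Cy3, lay between -0.66 and 0.77.

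Intensities were log2-transformed with no pseudocount and corrected by loess within arrays (span 0.4, 4 iterations). Each array was then shifted by its median deviation, taken over 193 spots with values on every array. Duplicate spots were averaged, and so were the Cy3 and Cy5 values of each RNA, both of which were required. Features with values in at least 3 animals per group were tested with limma 3.58.1 in R 4.3.3, with all 4 groups in one fit, the animal as fixed block and Benjamini-Hochberg adjustment over 190 features (threshold 0.05, two-sided). Each contrast was fitted as a coefficient of its own. Fits were also run on simulated data with known changes, and no result given here rests on that run. Figures used matplotlib 3.10.9.

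The pairing comes from the study's design. Untreated and treated strips of the same animal deviated together from their group means, with a mean correlation of 0.709 (0.32 to 0.942), against -0.177 between different animals. Deviations from a group mean cancel out over its animals, so the value between animals largely follows from that within animals. These strips also shared arrays in animals 2 to 5. The correlation therefore does not separate animal from array and is no independent check of the pairing.

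Genes are named from GEO's platform annotation, which may be out of date. It covers 30 spots of 14 genes, and all 14 matched RefSeq by gene number. No sequences or genome positions were used here. The text names called features, all annotated genes, the 5 smallest p for the departure, the 3 smallest p that missed the combined threshold and the 3 lowest changes with an unadjusted p under 0.05. Members, lists and rules were chosen with earlier results of these data known. Of the 5 gene lists 3 had a tested gene.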

Additional observations from a re-analysis of the deposited data

Results flagged for a closer look

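Among 40 sets of per-animal values, 2 held an animal whose gap to the next, over the whole range, exceeded Dixon's 95% critical value, and chance alone exceeds it in about 1 of 20 sets. The departure from additivity of spots 537 and 538 was 4.91 in animal 3, against 0.04 to 0.64 in the other 3 animals with values from both dyes. On array 3, which held the untreated and the treated strip of animal 3, spot 537 read 33883 in the treated and 19606 in the untreated channel, and its duplicate spot 538 was blank. On all other arrays readings of both spots lay between 527 and 3926. The combined change of spots 71 and 72 was -0.13 in animal 2, against -0.63 to -0.53 in the other animals.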

How the results depend on the processing

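For the combined change, 0 of 434 values of the features named were reversed, 32 calls were lost and 11 gained. Reversed means a changed sign where the main fit, the alternative or both passed the threshold. Another 14 values, all of features not called, changed sign. The count of 7 became 3 without the replicate block, 4 with quantile normalization, 3 from Cy3 alone, 3 from Cy5 alone, 19 with only the 2 groups fitted, 17 from on-array ratios, 20 with array terms (added after seeing the data, with a correlation of 0.00162 between labellings of an RNA), 4 in animals 1 to 3 and 2 in animals 4 and 5, and 5 to 7 leaving out each animal. The call was lost in 0 of 18 alternatives for spots 7 and 8 and in 0 of 21 for spots 35 and 36. Spots 7 and 8 lacked the values to be tested with all 5 animals required, in animals 4 and 5 alone or with array terms. It was lost in 1 of 21 for spots 67 and 68, 4 of 21 for PRKCE, 7 of 21 for spots 93 and 94, 10 of 21 for spots 955 and 956, and 10 of 20 for spots 55 and 56. The adjusted p of PRKCE ranged from 0.000592 to 0.531. The departure count of 0 stayed 0 leaving out each animal and became 5 in animals 4 and 5. It became 103 with array effects removed before averaging, a fit that does not take off the array terms' degrees of freedom. With those terms in the fit it was 0 of 118. In that removal ITGA9 (-0.45), spots 531 and 532 (0.97) and spots 71 and 72 (-0.68) were reversed. With these included, 41 of 435 departure values changed sign over all alternatives, those of PRKCE in 5 of 21. Carbachol alone called 3 with only the 2 groups fitted. Without the shift between arrays the median departure was 0.283 and the median carbachol change -0.203, and Cy3 alone moved them to 0.106 and -0.128. The cause of these moves was not tested. The block changed no call of the departure or of carbachol alone, and stretch alone called 3 without it. Signal over background is unknown.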
